A study of Bos taurus with 20 samples.

Results

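Musculus longissimus dorsi, the long muscle of the back, was profiled in 20 bulls of the Holstein x Charolais F2 cross, with 1 Affymetrix cattle GeneChip per bull. The titles number 10 of these bulls with a leading S and 10 without, and no label explains the letter. Each side held 5 bulls of the high and 5 of the low group for intramuscular fat (IMF), so the title series and the IMF group are balanced. All bulls shared the cross, the muscle and the RNA protocol in the labels, no treatment is named, and no label gives an age. The S-titled bulls, called S bulls below, were compared with the others with IMF content in the model. The series may be a batch of collection, RNA work or hybridisation, or a set of animals, and these cannot be told apart here. Bulls are numbered within their series in accession order.

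Skeletal muscle contains slow oxidative and fast glycolytic fibres, and between the fibres lie fat cells, connective tissue, vessels, nerves and immune cells. Bulk RNA from such a tissue mixes all of them, so fewer cells of a type and less RNA per cell cannot be told apart. Levels and differences are given in log2 units of the deposited signal plus 1, and a difference is always S bulls minus the others. A gene is called higher or lower when its adjusted p in limma, over all 24016 probe sets, was under 0.05. A gene is represented by its brightest probe set, or in the rankings of single genes by the probe set ranked. Groups are said not to overlap when every S bull lay on the same side of every other bull.

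The muscle identity of both series was plain in its defining genes. ACTA1, the skeletal muscle actin, ran from 13.62 to 13.80 in S bulls and from 13.55 to 13.74 in the others, among the brightest signals on the arrays. MYH7, the slow myosin heavy chain, and MYH1, a fast one, had medians of 13.92 and 13.97 in S bulls and of 13.94 and 14.10 in the others. MYH2 and TTN, 2 further defining genes, had no probe set with their symbol alone.

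The arrays themselves differed between the series in RNA that no bull supplied. Affymetrix hybridisation controls are bacterial and phage sequences added to the labelled sample. Their mean over 18 probe sets ran from 10.15 to 10.80 with a median of 10.32 on S arrays, and from 10.89 to 11.05 with a median of 10.98 on the others. The ranges did not overlap, the difference was -0.59, and the adjusted p was 7.09e-05 by an exact permutation test of series within IMF group (two-sided, 63504 arrangements, adjusted over 18 array measures, 3.15e-05 being the smallest unadjusted p it can give). All 18 probe sets were lower on S arrays, with differences from -0.88 to -0.23, and 13 of them without overlap. On S arrays 4 and 3 the mean was 10.80 and 10.67, the closest to the other series.

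Poly-A controls, Bacillus transcripts that the standard protocol adds to total RNA before labelling, moved in both directions. For lys, the 3′ and 5′ probe sets were higher by 0.87 and 1 on S arrays, with no overlap in either (exact permutation test, adjusted p = 7.09e-05 each). For thr, the 5′ probe sets were lower by 0.94 with no overlap (7.09e-05), whereas the 3′ probe sets differed by 0.00 (0.985). For dap, the 3′ probe sets were 0.39 higher (0.000624) and the 5′ probe sets 0.46 lower (0.00794). For phe, the 3′ and 5′ probe sets were higher by 0.39 (0.00149) and 0.79 (7.09e-05). Of 24 poly-A probe sets, 15 were higher and 9 lower on S arrays, 6 and 1 of them without overlap, and the differences ran from -0.98 to 1.03. Differences of up to 1 log2 unit between the series were thus measured in transcripts of no bovine origin, and probe sets for the 3′ and 5′ ends of the same transcript moved apart. Their part in the gene differences below was not tested.

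**Figure D1:**
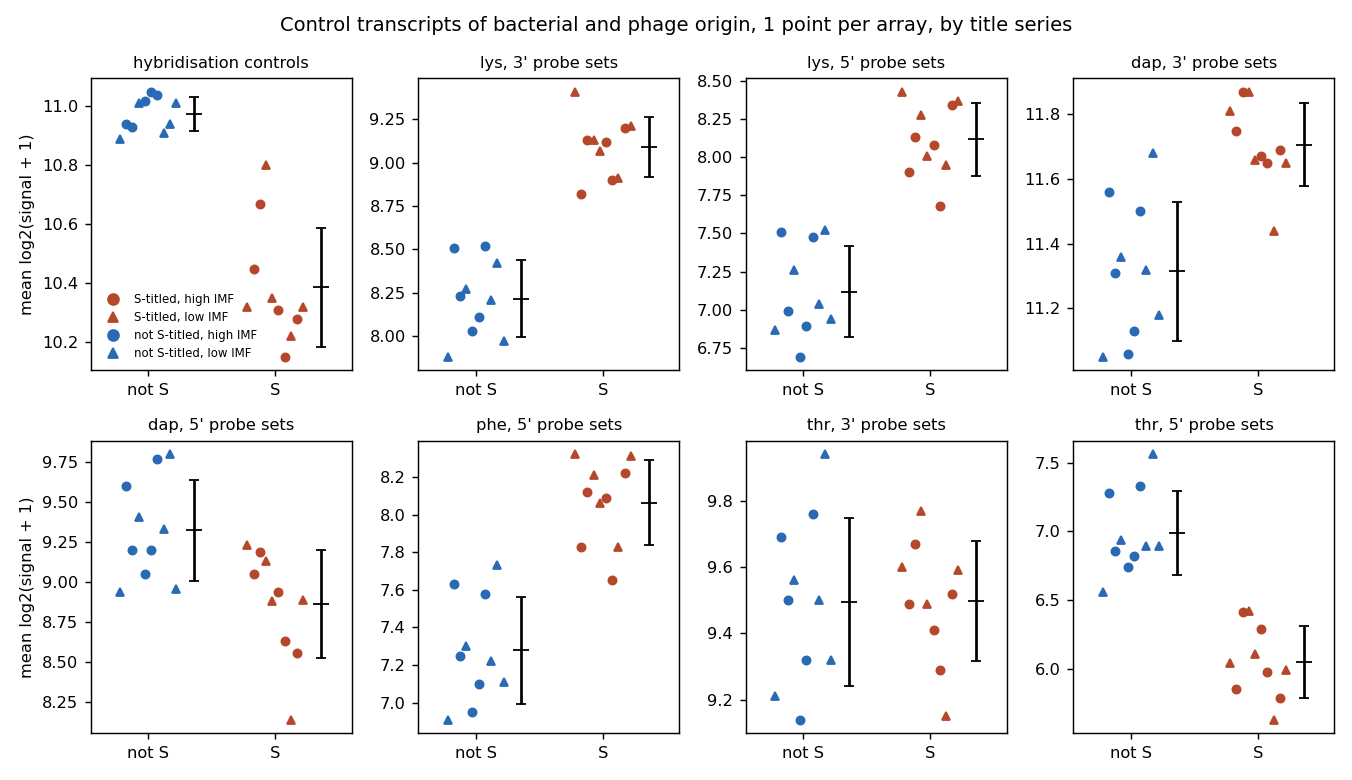
Mean log2(signal + 1) of hybridisation controls and of poly-A controls on each array, by title series, with circles for high and triangles for low IMF bulls and black bars for the mean and SD of 10 arrays. The hybridisation controls of all S arrays (10.15 to 10.80) lie below those of all others (10.89 to 11.05), lys lies higher and the thr 5′ probe sets lower without overlap, and the thr 3′ probe sets do not separate.

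Other array measures differed less. The median signal of an array ran from 51.6 to 66.6 in S bulls and from 62.6 to 67.6 in the others (exact permutation test, adjusted p = 0.103), with S bulls 2 and 7 dimmest at 51.6 and 56.6. The 3′ to 5′ difference of GAPDH, a check of RNA integrity, had a median of -0.39 in S bulls and of -0.35 in the others (adjusted p = 0.172). That of actin had medians of -0.38 and -0.21, a difference of -0.19 (0.00872), and that of EF1A medians of -1.49 and -1.24, a difference of -0.27 (0.0334). In 4 bulls a probe set for albumin, a liver transcript, exceeded a signal of 2000: S bulls 2, 6 and 9, all of high IMF, and bull 8 without S, of low IMF. Counts for the lists of fat, liver and plasma protein genes are therefore also given without these 4 arrays. On the first principal component, with 30.5% of the variance over all probe sets, S arrays ran from 32.8 to 80.1 and the others from -59.7 to -20.2. The second component held 9.26%. Each of the 20 arrays correlated best, over all probe sets, with an array of its own series.

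**Figure D2:**
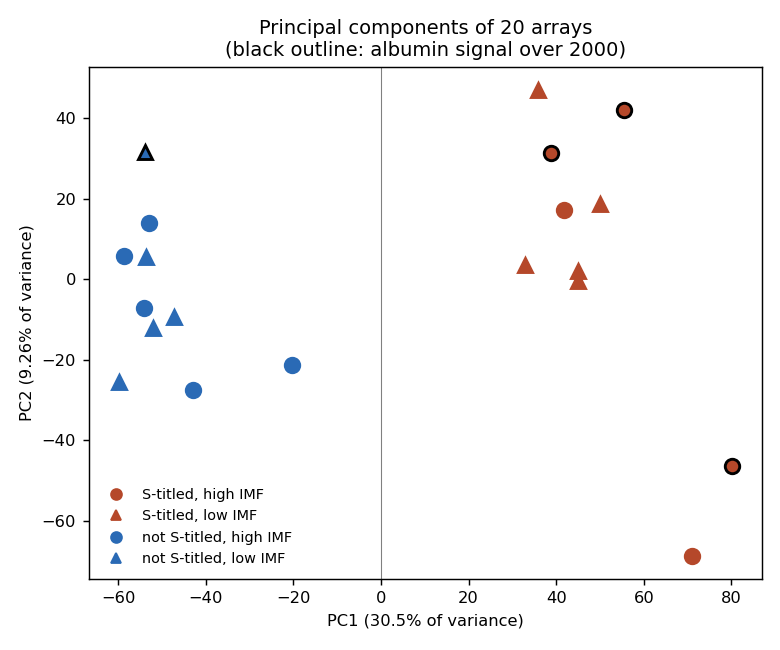
First and second principal component of the 20 arrays from log2(signal + 1) of 24016 probe sets, with colour for the title series, shape for the IMF group and a black outline for the 4 arrays with an albumin signal over 2000. The first component separates the S arrays (32.8 to 80.1) from the others (-59.7 to -20.2), and S bulls 2 and 7, the dimmest arrays, lie lowest on the second.

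Across the array, 5886 probe sets (24.5%) were called higher and 6663 (27.7%) lower in S bulls, together 52.3% of those tested. Among 9155 genes, 3112 (34.0%) were higher and 2334 (25.5%) lower, and the median gene difference was 0.09. These shares are the background for every count of this fit below. A list with shares near 34.0% and 25.5% matches the 9155 genes as a whole. Counts from other fits have their own background. Without the 4 albumin arrays 2709 of the 9155 genes were higher and 2047 lower. The groups did not overlap in 1046 genes (11.4%) that lay above and in 629 (6.87%) that lay below. Differences over 1 log2 unit were more often downward, in 1734 called probe sets against 786 upward. Bright probe sets were called more often, 71.2% in the brightest of 5 equal bins and 22.7% in the dimmest. The background shares are not matched to the signal level of a list.

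The difference was measured separately in high and in low IMF bulls, which share no animal. Among high IMF bulls 7849 probe sets (32.7%) were called, and among low IMF bulls 8804 (36.7%). Both comparisons called 5965, which is 76.0% of the first set and 67.8% of the second, and 5963 of these had the same sign. Over all 24016 probe sets the 2 differences correlated with r = 0.75, as a description, since probe sets of an array are not independent and the controls differ in both IMF groups. The test of the difference between these differences, the interaction of series and IMF in limma, called 0 probe sets (0%). An unadjusted p under 0.05 was found in 1109 (4.62%), and leaving out the 4 albumin arrays gave 1 call. Liver transcripts differed in opposite directions in the IMF groups without being called: VTN, a plasma adhesion protein, by 4.57 in high and -0.57 in low IMF bulls, and APOA2, an apolipoprotein, by 3.22 and -2.21. Of the 4 albumin arrays, the 3 of S bulls are of high IMF and the other is of low IMF.

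**Figure D3:**
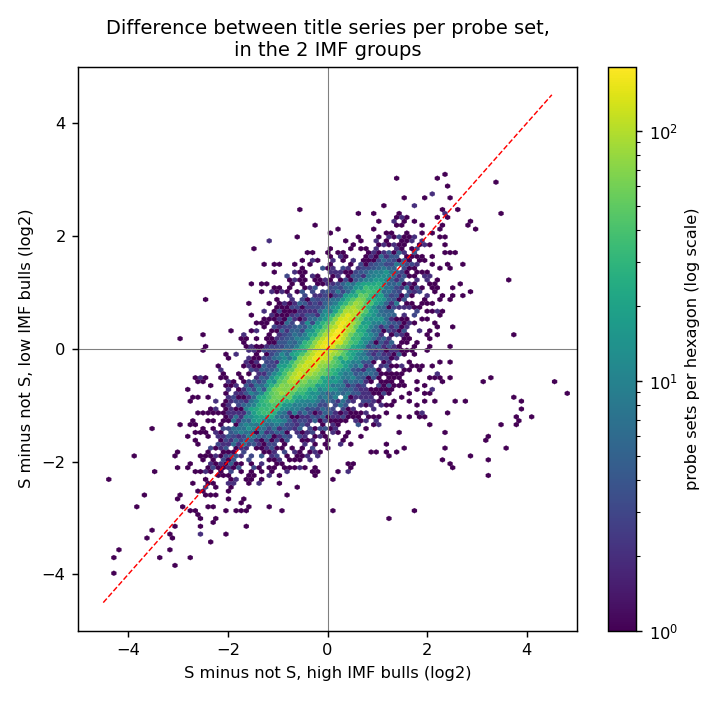
Difference S minus not S per probe set in high IMF bulls (horizontal) and in low IMF bulls (vertical), both in log2 units, with colour for the number of probe sets in a hexagon and the line of equality dashed. Most probe sets lie along the line (r = 0.75), and liver transcripts such as VTN (4.57 and -0.57) lie at high horizontal and negative vertical values.

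When the hybridisation control level of each array was a further covariate, 15.6% of probe sets were called, 2125 higher and 1626 lower. Among the 9155 genes 1291 were higher and 604 lower, the background for list counts from this fit. Since no S array reached the control level of the others, that fit separates the series from the control level only through the spread within each series. In that fit 12 higher cell cycle genes became 1, 9 higher macrophage markers 1, 8 higher adipogenic regulators 1, and 10 higher complement genes 2. The 10 lower hypoxia genes became 1, and the 10 lower TGF-beta genes 1. Other lists kept more of their calls. Of autophagy and lysosome genes, 24 higher became 18 and 17 lower became 5. In adrenergic and cAMP signalling 17 higher became 10 and 7 lower became 2. In the TCA cycle 9 lower became 7 and 3 higher became 2. Counts of further lists in that fit are given below.

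The genes with the smallest p in the upward direction serve many cell functions. PFN1, profilin, which feeds actin monomers to growing filaments, ran from 10.57 to 10.92 (median 10.84) in S bulls and from 8.90 to 9.39 (median 9.26) in the others. All S bulls were above all others, and the difference of 1.56 (SE 0.07), or 2.96-fold, had an adjusted p of 3.7e-11. PKM, the pyruvate kinase that ends glycolysis, ran from 11.46 to 11.85 (median 11.59) against 9.96 to 10.57 (median 10.15). Here too the groups were fully apart, with a difference of 1.44 (SE 0.08) and an adjusted p of 1.45e-10. The other 8 of the first 10 were RING1, a ubiquitin ligase of Polycomb complexes, TRAPPC1, which tethers vesicles, S100A16, a calcium-binding protein, RABAC1, which binds Rab proteins, MACROD1, an ADP-ribose hydrolase, UBL5, a ubiquitin-like splicing protein, POLR2J, a subunit of RNA polymerase II, and RNASEK. They were higher by 1.09 (RABAC1) to 1.56 (RING1) on the ranked probe sets, each without overlap and with adjusted p up to 8.66e-11. Brighter probe sets of MACROD1 and UBL5 were higher by 0.79 and 0.78, and a dimmer one of RABAC1 differed by 0.17 (0.125).

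Larger, more variable differences were found in another set. G0S2, an inhibitor of the main triglyceride lipase, ran from 6.31 to 9.86 (median 8.12) in S bulls and from 5.26 to 7.19 (median 6) in the others, a difference of 2.08 (SE 0.34, adjusted p = 4.58e-05). Of the S bulls, 7 exceeded every other bull. TPPP3, which stabilises microtubules, was 1.92 higher (SE 0.27, 9.28e-06), FOSL2, an AP-1 transcription factor, 1.90 (SE 0.13, 1.91e-09), and MMP2, a collagen-degrading protease, 1.84 (SE 0.16, 2.72e-08), each without overlap. CTDSP1, a phosphatase of RNA polymerase II, was 2.02 higher (SE 0.44, 0.000783) on its probe set in this ranking, at a mean level of 7.08. Its other probe set, slightly brighter at 7.21, was called in the opposite direction, at -0.56 (0.00167), so no direction is given for it. The remaining FOSL2 probe sets differed by 0.20 and -0.17. THRSP, a promoter of fatty acid synthesis, was 1.94 higher (SE 0.61, 0.0119), with 3 S bulls above all others.

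In the downward direction PPP1CB and MYBPC1 shared the smallest adjusted p. PPP1CB, a catalytic subunit of protein phosphatase 1, ran from 5.73 to 6.79 (median 6.33) in S bulls and from 9.23 to 9.70 (median 9.39) in the others. Every S bull lay more than 2 units below every other bull on this probe set, a difference of -3.23 (SE 0.14, 9.35-fold, adjusted p = 3.7e-11). Its other probe sets gave -1.53 and -0.99, so the direction was shared and the size was not. PPP1R2, an inhibitor of the same phosphatase, was lower by 2.75 (SE 0.15, 1.45e-10) on one probe set and differed by -1.46 on the other. CAV1, the coat protein of caveolae, was lower by 2.47 (SE 0.16, 8.07e-10) on one and differed by -0.54 on the other.

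PDK4, the kinase that shuts pyruvate out of oxidation when fat is burned, ran from 6.46 to 10.17 (median 8.64) in S bulls and from 10.70 to 11.62 (median 11) in the others. No S bull reached the others, and its 3 probe sets were lower, with differences of -2.34, -2.07 and -2.01. CUL5, a scaffold of ubiquitin ligases, was lower by 2.28 (SE 0.25, 5.54e-07), and UBXN2A, a ubiquitin adaptor, was lower by 2.22 (SE 0.17, 6.35e-09). Others with the smallest p were MYBPC1, a myosin-binding protein of slow fibres, G3BP1 of stress granules, SYNCRIP, an RNA-binding protein, TOMM70, an import receptor of mitochondria, HLF, an output factor of the circadian clock, CHUK, a kinase of the NF-kappaB pathway, ARMC8 and ZNF330. They were lower on the ranked probe sets, with differences from -2.13 (G3BP1) to -1.22 (CHUK), without overlap. Brighter probe sets of G3BP1, ARMC8 and TOMM70 gave smaller differences, of -0.83, -0.79 and -1.05.

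**Figure D4:**
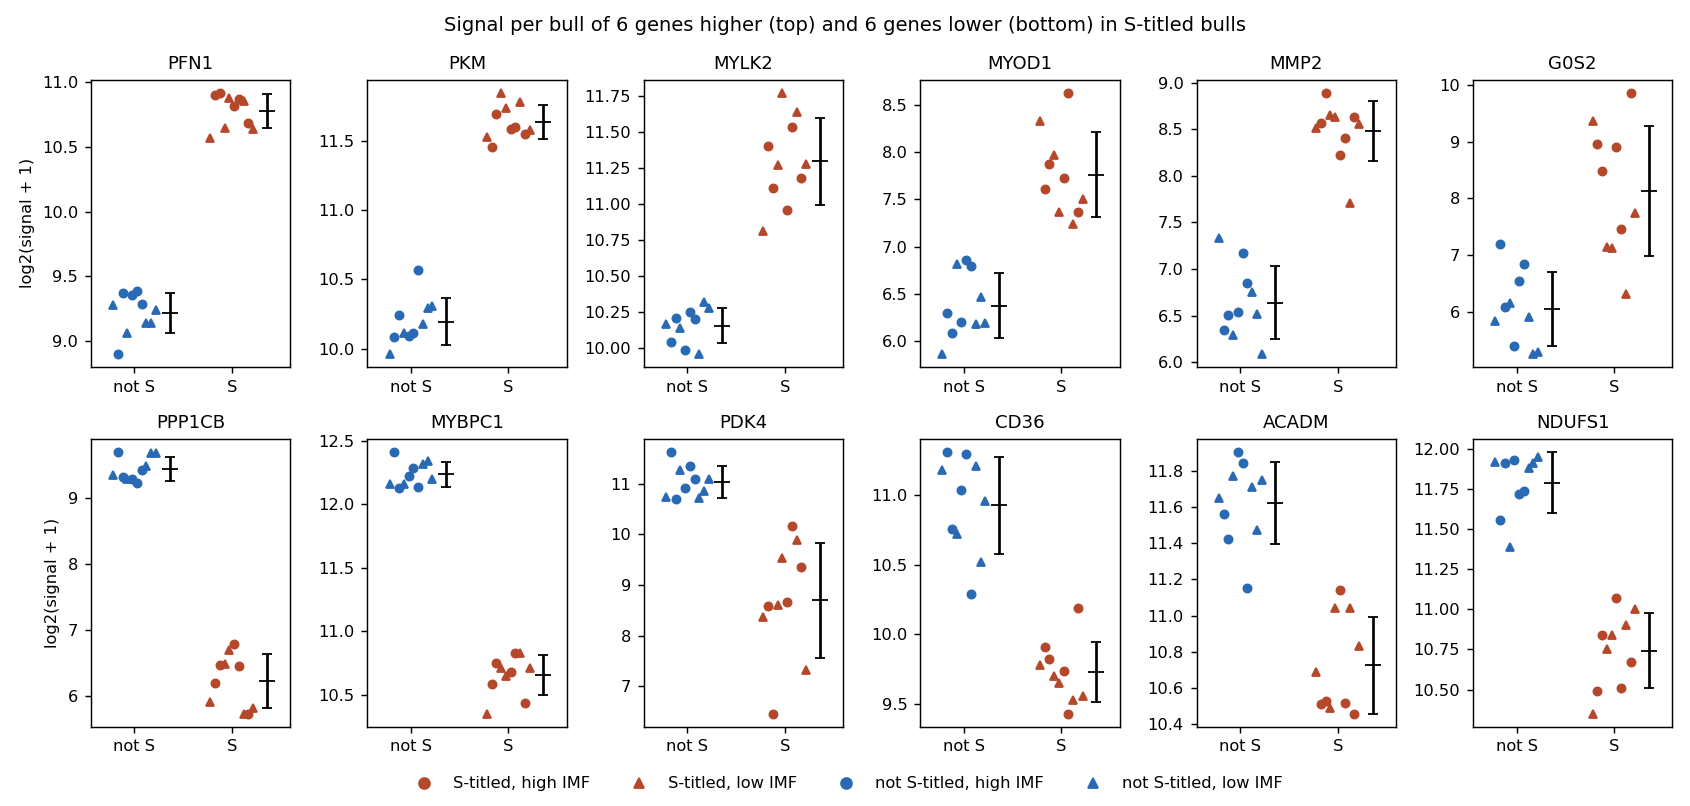
Log2(signal + 1) per bull of 6 genes called higher and 6 called lower in S bulls, with circles for high and triangles for low IMF and black bars for the mean and SD of 10 bulls. The groups do not overlap in any panel but that of G0S2, where 7 of 10 S bulls exceed every other bull.

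Probe sets of the same gene did not always move together. Of 2913 genes with several probe sets, 988 had called probe sets only upward, 1087 only downward, 594 none, and 244 (8.38%) in both directions. Where the 2 brightest probe sets of a gene were both called (1075 genes), they had the same sign in 909 (84.6%). Below, a probe set of opposite sign is therefore given beside each gene described by its brightest one. Silence on other probe sets means only that none had the opposite sign.

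Contractile genes differed little in level for the main myosins and more for regulators. Of 12 slow fibre genes, 0 were higher and 4 lower, with a median difference of -0.10, which became -0.03 with arrays centred on their medians and 0.01 after quantile normalization. MYH7 differed by -0.07 (SE 0.07, adjusted p = 0.377), with 0.08 (0.428) on another probe set, MYL2, the slow regulatory light chain, by -0.02 (0.791), and TNNT1, slow troponin T, by 0.04 (0.690). ATP2A2, the calcium pump of slow fibres, was lower by 0.44 (SE 0.08, 0.00013) without overlap. PLN, which restrains that pump, ran from 8.29 to 11.25 (median 9.58) in S bulls and from 10.30 to 11.45 (median 10.95) in the others. It was lower by 1.28 (SE 0.25, 0.000255), with 8 S bulls below all others, and its other probe sets were lower, with differences of -1.40 and -1.83. The 3 MYBPC1 probe sets were lower, with differences of -0.51, -1.58 and -0.91, the last at a mean level of 3.77.

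Among 10 fast fibre genes, 4 were higher and 1 lower, with a median of 0.04. Over all 19 probe sets of these genes, 5 were higher and 8 lower. MYLK2, the myosin light chain kinase of skeletal muscle, ran from 10.81 to 11.77 (median 11.27) in S bulls against 9.96 to 10.32 (median 10.18). It was higher by 1.14 (SE 0.11, 7.02e-08), the groups standing apart. ATP2A1, the calcium pump of fast fibres, was higher by 0.63 (SE 0.08, 2.56e-06), and ACTN3, the fast fibre actinin, by 0.19 (SE 0.05, 0.00346), both without overlap. TNNT3, fast troponin T, was higher by 0.13 (0.0279). MYH1 was lower by 0.15 (SE 0.05, 0.0202), and its other 7 probe sets were lower too. The differences were -0.31 and -0.13 on bright ones, with mean levels of 13.65 and 13.89. The largest, -2.16, -1.90 and -1.37, came at mean levels of 1.88, 3.15 and 6.66.

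The shared sarcomere and Z-disc genes split, with 7 of 26 higher and 9 lower. MYOT, a Z-disc protein, was lower by 0.81 (SE 0.08, 1.11e-07), and CAPZA2, which caps actin filaments, was lower by 1.20 (SE 0.12, 2.43e-07). PDLIM7, another Z-disc protein, was higher by 0.66 (SE 0.07, 2.42e-07), CKM, the muscle creatine kinase, by 0.26 (0.000407), and DES, the intermediate filament desmin, by 0.39 (0.000331). ACTA1 differed by 0.06 (0.318). The dystrophin-associated and costamere list had 6 of 11 higher and 3 lower. Within the sarcoglycan complex of the fibre membrane SGCA was higher by 1.03 (SE 0.09, 2.06e-08) and SGCB was lower by 1.09 (SE 0.12, 5.56e-07), both without overlap. TLN1, talin, was 1.25 higher (SE 0.10, 1.01e-08), and its dimmer probe set differed by 0.01. DAG1, dystroglycan, was 0.21 higher (0.00964), with -0.02 on its dimmer probe set.

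Of 19 genes of excitation and calcium handling, 8 were higher and 5 lower. STIM1 and ORAI1, sensor and channel of calcium entry, were higher by 0.98 (SE 0.08, 9.53e-09) and 1.08 (SE 0.08, 6.36e-09). JPH1, which ties the calcium store to the surface membrane, was lower by 0.82 (SE 0.06, 1e-08). CACNA1S, the voltage sensor, was higher by 0.90 (SE 0.29, 0.0135) at a dim signal, with medians of 3.60 and 2.82.

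Among satellite cell and myogenic regulators, 5 of 23 were higher and 9 lower, with a median of -0.19, or 0.03 with the hybridisation control level as a covariate. MYOD1, a master regulator of the muscle lineage, ran from 7.24 to 8.63 (median 7.67) in S bulls against 5.86 to 6.86 (median 6.24), higher by 1.39 (SE 0.17, 2.06e-06). MYOG, which drives differentiation, was higher by 0.86 (SE 0.14, 5.63e-05), with 9 S bulls above all others. TCF12, a partner of MYOD1, was lower by 0.85 (SE 0.08, 5.35e-08). MEF2A differed by -1.12 on its brightest probe set (SE 0.13, 7.44e-07), while its others differed by 2.55 and -0.10, so no direction is given for it.

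Mitochondrial lists pointed different ways. Of 76 oxidative phosphorylation genes, 36 (47.4%) were higher and 9 (11.8%) lower, with a median of 0.16. NDUFS8, a complex I subunit, was higher by 0.70 (SE 0.08, 1.06e-06), and UQCRC1, of complex III, by 0.51 (SE 0.08, 3.48e-05). ATP5F1D, of ATP synthase, was higher by 0.88 (SE 0.09, 2.04e-07) on its brightest probe set. Its other probe set was called in the opposite direction, at -0.57 (0.00534) and a mean level of 5.61. NDUFS1, the largest complex I subunit, ran from 10.35 to 11.07 (median 10.79) in S bulls and from 11.39 to 11.95 (median 11.89) in the others. It was lower by 1.05 (SE 0.10, 9.84e-08) without overlap, and differed by -1.52 and -0.40 on its other probe sets. COX5A differed by 0.10 (0.226) and ATP5F1B by -0.08 (0.360). With the hybridisation control level as a covariate, 6 of the 76 were higher and 2 lower, both below the shares over all genes in that fit.

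Genes for the ribosome and import machinery of mitochondria were higher in 40 of 68 (58.8%) and lower in 12 (17.6%), with a median of 0.22. MRPL36, a mitochondrial ribosomal protein, was higher by 0.65 (SE 0.06, 4.22e-08). The mitochondrial chaperones HSPD1 and HSPA9 were lower, with differences of -1.02 (SE 0.08, 1.71e-08) and -0.75 (SE 0.07, 1.23e-07). All 3 separated the groups.

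The TCA cycle had the opposite balance, with 3 of 16 higher (18.8%) and 9 lower (56.2%), and a median of -0.60. The median was -0.71 in high and -0.49 in low IMF bulls, and -0.54 and -0.56 with centred and quantile-normalised arrays. SUCLA2, a subunit of succinyl-CoA ligase, ran from 10.89 to 11.62 (median 11.23) in S bulls against 11.98 to 12.56 (median 12.37). It was lower by 1.09 (SE 0.11, 1.36e-07) without overlap, its dimmer probe set differing by -0.10. IDH3A, the NAD-linked isocitrate dehydrogenase, was lower by 0.91 (SE 0.10, 3.22e-07) and DLAT, of the pyruvate dehydrogenase complex, was lower by 0.98 (SE 0.11, 8.1e-07), with their other probe sets lower too. CS, citrate synthase, differed by -0.01 (0.918), and IDH2, the NADP-linked isocitrate dehydrogenase, was higher by 0.30 (0.0161).

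In mitochondrial fatty acid oxidation, 6 of 31 genes were higher and 11 lower, with a median of -0.15, or 0.02 with the hybridisation control level as a covariate. ACADM, the medium-chain acyl-CoA dehydrogenase, ran from 10.46 to 11.14 (median 10.61) in S bulls and from 11.15 to 11.90 (median 11.68) in the others. It was lower by 0.90 (SE 0.11, 1.66e-06), the highest S bull lying just under the lowest other bull. ACADSB, a branched-chain acyl-CoA dehydrogenase, was lower by 1.38 (SE 0.18, 2.67e-06), and HADHA, of the trifunctional protein, was lower by 0.57 (SE 0.08, 4.9e-06). CPT1B, which admits fatty acids to mitochondria, was higher by 0.38 (SE 0.15, 0.0369). PDK4, in this list too, had its lowest difference, -2.01.

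Glycolysis and glycogen genes divided as the 9155 genes did, with 9 of 24 higher and 6 lower. PYGM, the muscle glycogen phosphorylase, was higher by 0.47 (SE 0.06, 1.1e-06), and UGP2, which makes UDP-glucose for glycogen, was lower by 0.91 (SE 0.10, 6.78e-07). LDHA, lactate dehydrogenase, differed by -0.25 (0.000195) on its brightest probe set. Its other probe sets were called in both directions, at -0.72 (0.00337) and 0.42 (0.000214), so no direction is given for it. PFKM, phosphofructokinase, differed by -0.04 (0.588), while another bright probe set of it was higher by 0.34 (0.000728).

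Fat genes formed the lists most shifted upward in the main fit. Of 22 adipocyte markers, 14 (63.6%) were higher and 2 (9.09%) lower, with a median of 0.74. Among 28 genes of lipogenesis and triglyceride synthesis, 17 (60.7%) were higher and 1 lower, with a median of 0.57. Of 11 genes of lipolysis and lipid droplets, 9 (81.8%) were higher and 1 lower, with a median of 0.94. These lists share genes. With the 4 albumin arrays left out, the counts were 9 and 2, 12 and 1, and 5 and 1, and the medians 0.65, 0.46 and 0.69. With the hybridisation control level as a covariate 2, 5 and 2 genes were higher, and the medians were 0.52, 0.54 and 1.01. Of all 9155 genes 1291 were higher in that fit, and 2709 without the albumin arrays. With the control level as a covariate, the share of higher calls was thus below background for adipocyte markers and little above it for the other lists.

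The defining fat cell genes varied widely between bulls. FABP4, the adipocyte form of the fatty acid carriers, ran from 6.75 to 12.95 (median 10.37) in S bulls and from 6.19 to 11.03 (median 8.98) in the others. The groups overlapped over most of their range, and the difference of 1.45 (SE 0.60) had an adjusted p of 0.0502. ADIPOQ, adiponectin, was dim and differed by 0.33 (SE 0.40, 0.515), and LEP, leptin, by -0.07 (0.880). The other LEP probe set was higher by 2.08 (0.0267) at a mean level of 2.67, so no direction is given for leptin. CIDEC, which fuses lipid droplets and was chosen after its values were seen, was higher by 1.84 (SE 0.57, 0.0107), with 5 S bulls above all others. Without the 4 albumin arrays CIDEC (1.29), THRSP (1.18), DGAT2 (0.75), SCD (0.42) and PLIN2 (0.4) were no longer called, while G0S2 (1.77) and FASN (0.98) were. With the control level as a covariate none of these 7 was called. The sum of linear signals over the 22 markers ran from 14622 to 40796 in S bulls and from 13501 to 18733 in the others, and 5 S bulls had a mean marker level above all others.

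The adipocyte marker with the smallest p was CD36, lower in S bulls and described with uptake below. AQP7, a glycerol channel, was higher by 0.74 (SE 0.08, 4.48e-07), CAVIN1, a caveolar coat protein, by 0.69 (SE 0.08, 6.68e-07), and AGPAT2, of triglyceride assembly, by 1.38 (SE 0.15, 3.89e-07), each without overlap. DGAT1 and DGAT2, which complete triglycerides, were higher by 0.99 (SE 0.12, 1.32e-06) and 1.35 (SE 0.36, 0.00357). ACACA, which makes malonyl-CoA, ran from 7.86 to 8.60 (median 8.16) in S bulls and from 6.63 to 7.72 (median 7.03) in the others, higher by 1.06 (SE 0.12, 7.58e-07), with -0.26 on its dimmer probe set. FASN, the fatty acid synthase, was higher by 1.33 (SE 0.32, 0.00177), and SCD, the desaturase, by 0.85 (SE 0.34, 0.0436), of which 1.38 in high and 0.32 in low IMF bulls. PNPLA2, the main triglyceride lipase, was higher by 1.13 (SE 0.11, 1.96e-07) without overlap, PLIN3 by 0.70 (SE 0.09, 4.28e-06), BSCL2, seipin, by 0.96 (SE 0.15, 2.2e-05), and PLIN2 by 0.54 (0.0325).

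In uptake of fatty acids the median was -0.18, or 0.12 with the hybridisation control level as a covariate, with 4 of 13 genes higher and 4 lower, and 3 and 4 without the 4 albumin arrays. CD36, the fatty acid translocase, ran from 9.43 to 10.19 (median 9.72) in S bulls and from 10.29 to 11.31 (median 11) in the others. It was lower by 1.20 (SE 0.13, 4.09e-07) with no overlap. LPL, which frees fatty acids from plasma lipoproteins, was lower by 0.73 (SE 0.26, 0.0250), whereas LMF1, needed for its maturation, was higher by 1.20 (SE 0.11, 6.79e-08). FABP3, the muscle fatty acid binding protein, was higher by 0.28 (SE 0.09, 0.0111), and ACBD3 was lower by 0.63 (SE 0.10, 3e-05).

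Cholesterol synthesis genes were higher in 8 of 16 and lower in 2, with the same counts without the 4 albumin arrays. EBP and TM7SF2, late enzymes of the pathway, were higher by 0.53 (SE 0.07, 2.8e-06) and 1.09 (SE 0.16, 1.12e-05), and HMGCS1, an early one, was lower by 0.70 (SE 0.09, 1.48e-06). In the list of adipogenic regulators and preadipocyte genes 8 of 21 were higher and 1 lower, and without the 4 albumin arrays 4 and 1. DLK1, a preadipocyte and muscle growth factor, ran from 8.30 to 9.80 (median 8.92) in S bulls and from 6.32 to 8.20 (median 7.43) in the others. It was higher by 1.49 (SE 0.21, 1.02e-05) without overlap, and by 1.59 on its other probe set, at a mean level of 3.54. RXRA, a nuclear receptor, was higher by 0.61 (SE 0.10, 2.78e-05) and STAT5B by 0.51 (SE 0.09, 0.000122). PPARG and CEBPA, the master regulators of fat cells, differed by -0.03 (0.877) and 0.05 (0.879). Both were dim, at mean levels of 4.79 and 3.46, so these probe sets say little about a change. PDGFRA, a marker of fat cell progenitors, differed by -0.05 (0.791), with 0.21 (0.0795) on another probe set.

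**Figure D5:**
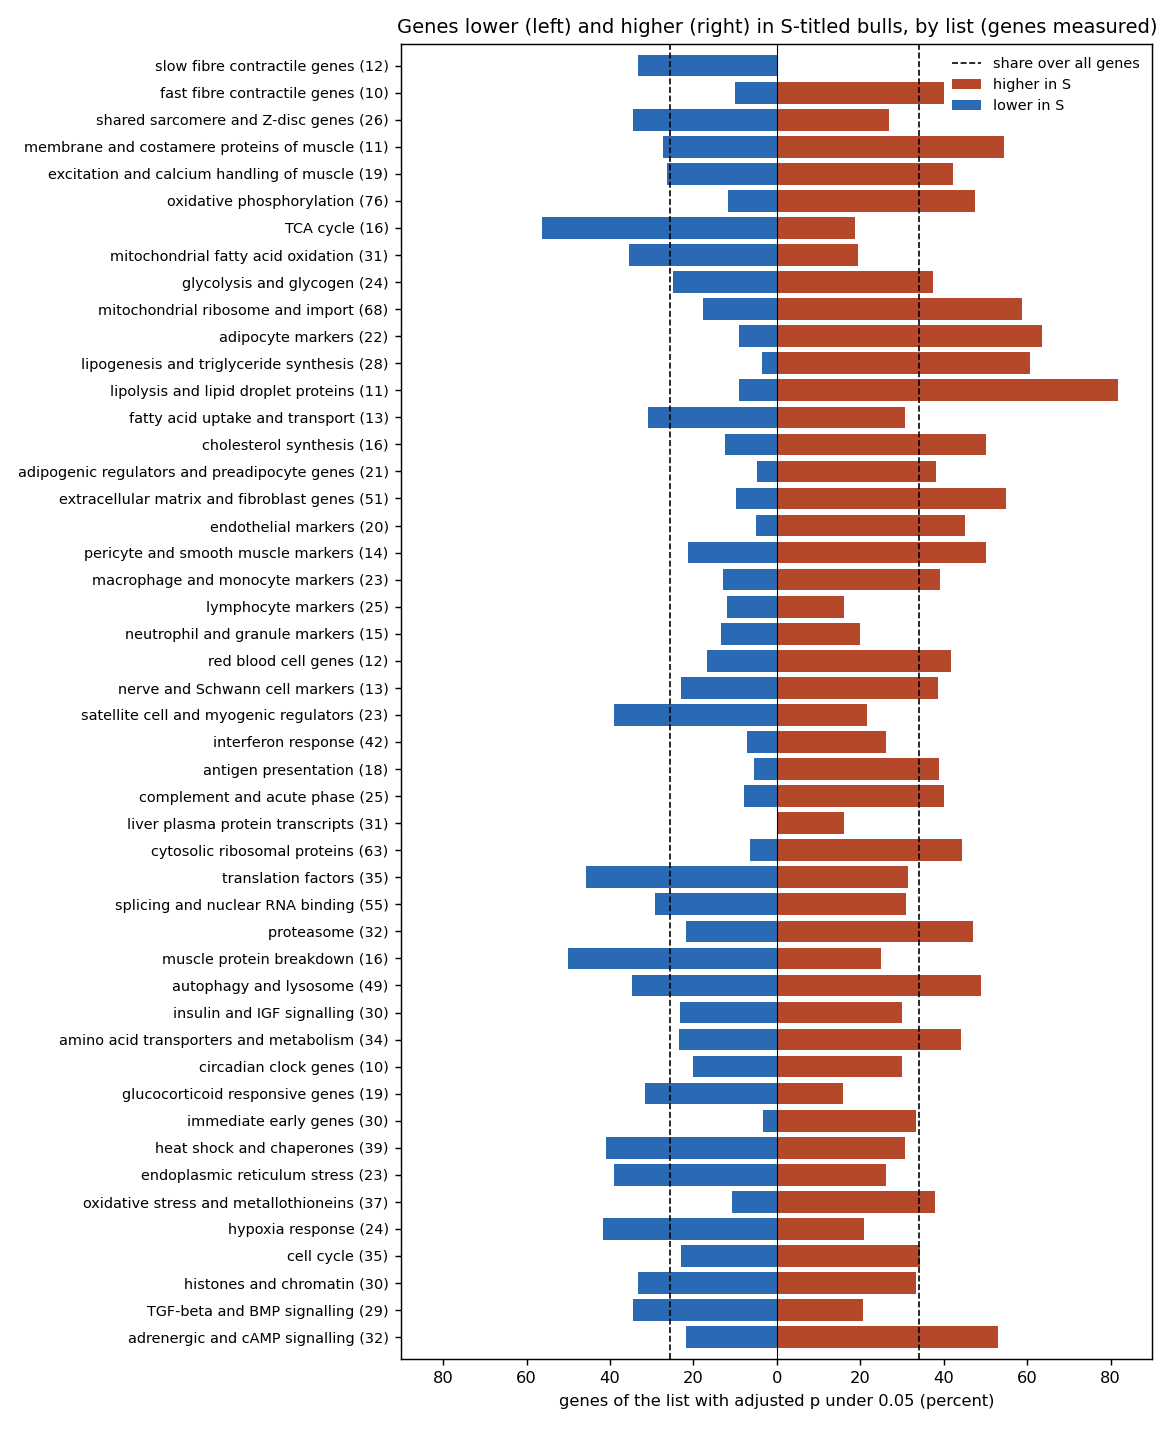
Share of the measured genes of each list called higher (right) and lower (left) in S bulls, in percent, with the number of measured genes in brackets and the shares over all 9155 genes dashed (34.0% higher, 25.5% lower). Lipolysis and lipid droplets (81.8% higher) and adipocyte markers (63.6%) stand highest on the right, and the TCA cycle (56.2% lower) on the left.

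Connective tissue genes were shifted upward. Of 51 extracellular matrix and fibroblast genes, 28 (54.9%) were higher and 5 (9.80%) lower, with a median of 0.45. MMP2 ran from 7.71 to 8.89 (median 8.57) in S bulls and from 6.09 to 7.33 (median 6.53) in the others. TIMP1, an inhibitor of such proteases, was higher by 1.57 (SE 0.14, 5.39e-08), and both separated the groups. COL1A1, of type I collagen, was higher by 1.53 (SE 0.29, 0.000183), but its other probe set differed by 0.07. COL3A1, of type III collagen, differed by 0.14 (0.603) and by -0.02 (0.946) on another probe set, and FN1, fibronectin, was higher by 0.51 (SE 0.19, 0.0353). PLOD1, a collagen lysyl hydroxylase, differed by -0.64 on its brightest probe set and differed by 1.03 on the other, so no direction is given for it. Summed linear signals of the list overlapped, with 34773 to 62697 in S bulls and 24139 to 65089 in the others.

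Vessel markers were higher in 9 of 20 endothelial and 7 of 14 pericyte and smooth muscle genes, and lower in 1 and 3. EGFL7, secreted by endothelium, was higher by 1.07 (SE 0.14, 2.47e-06), CLDN5, of endothelial tight junctions, by 0.92 (SE 0.12, 2.69e-06), and TIE1, an endothelial receptor, by 1.40 (SE 0.20, 1.06e-05). The defining genes PECAM1 and CDH5 were higher by 0.34 (0.0299) and 0.39 (0.0312), and VWF, dim in both series, differed by 0.29 (0.223). The other VWF probe set was called in the opposite direction, at -2.88 (0.00488) and a mean level of 3.44. In smooth muscle SMTN was higher by 1.15 (SE 0.15, 2.2e-06), TAGLN by 0.73 (SE 0.15, 0.000595) and ACTA2 by 0.41 (SE 0.11, 0.00429), while MYH11, its myosin, was lower by 0.58 (SE 0.22, 0.0326), or 0.54 higher with the hybridisation control level as a covariate. Summed signals ran from 4528 to 7314 in S bulls and from 4421 to 6433 in the others for endothelium.

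Among macrophage and monocyte markers 9 of 23 were higher and 3 lower. CSF1R, their growth factor receptor, was higher by 0.83 (SE 0.14, 7.29e-05), CD14 was higher by 0.91 (SE 0.19, 0.000521) and CD68 was higher by 0.76 (SE 0.17, 0.000735), whereas TLR4 was lower by 0.80 (SE 0.14, 0.000121). Of 25 lymphocyte markers 4 were higher and 3 lower. CORO1A, an actin regulator of leukocytes, was higher by 1.28 (SE 0.21, 5.15e-05), and CD79A and PTPRC, which define B cells and leukocytes, differed by -0.35 (0.241) and -0.05 (0.896), with 0.20 (0.645) on another PTPRC probe set. Of the T cell genes, CD3D, of the T cell receptor complex, was higher by 0.45 (SE 0.14, 0.0105), and CD3E, of the same complex, differed by -0.07 (0.618). LCK, a kinase of that complex, differed by 0.42 (SE 0.11, 0.00439) on its brightest probe set. Its other probe sets were called in both directions, at 1.08 (0.0192) and -0.36 (0.0214), so no direction is given for it. Neutrophil and granule markers were dim, with 3 of 15 higher and 2 lower. PGLYRP1 and CATHL1, granule proteins, were lower, with differences of -1.29 (SE 0.32, 0.00231) and -1.11 (SE 0.22, 0.000375). MPO, the granule peroxidase, differed by 0.43 (SE 0.15, 0.0198) on its brightest probe set and by a called -1.18 (0.000586) on the other. No direction is given for it.

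Of 42 interferon response genes, 11 (26.2%) were higher and 3 (7.14%) lower. ISG15, an interferon-induced ubiquitin-like protein, ran from 6.34 to 9.31 (median 6.48) in S bulls against 5.28 to 6.03 (median 5.63). It was higher by 1.40 (SE 0.35, 0.00220) without overlap, and the median of S bulls lay close to their minimum. IRF9, of the interferon-activated factor, was higher by 0.83 (SE 0.15, 0.000112), IFIT5 was lower by 0.94 (SE 0.13, 4.44e-06), and MX1 differed by 0.69 (SE 0.45, 0.209). Antigen presentation had 7 of 18 higher and 1 lower, and TAPBP, of peptide loading, was higher by 0.80 (SE 0.07, 6.23e-08). The class II genes BOLA-DMA and BOLA-DRA were higher by 0.83 (SE 0.16, 0.000178) and 0.57 (SE 0.16, 0.00463), and B2M differed by 0.13 (0.430), with -0.14 (0.378) on another probe set.

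Complement and acute phase genes were higher in 10 of 25 and lower in 2, and in 10 and 1 without the 4 albumin arrays. SERPING1, the C1 inhibitor, ran from 9.88 to 11.55 (median 10.78) in S bulls and from 8 to 9.90 (median 9.16) in the others, higher by 1.57 (SE 0.22, 7.44e-06), with 9 S bulls above all others. A2M, a broad protease inhibitor, was higher by 1.1 (SE 0.19, 9.48e-05), and STAT3 by 0.96 (SE 0.10, 4.16e-07). C3, which liver makes in bulk, differed by 1.41 in high and by -1.48 in low IMF bulls, and by -0.04 (0.963) over all, with 2 (0.195) on a dimmer probe set.

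Liver plasma protein transcripts were called in 5 of 31 genes, all higher, and without the 4 albumin arrays in 7 higher and 1 lower. Their median difference was 1.32 in high and -0.52 in low IMF bulls, and their list level ran from 3.95 to 8.16 in S bulls and from 3.85 to 8.10 in the others. TTR, transthyretin, ran from 3.29 to 10.5 (median 5.30) in S bulls against 2.34 to 10.02 (median 3.14), a difference of 1.97 (SE 0.95, 0.0892). APOA1 was higher by 0.60 (SE 0.19, 0.0108). The 9 probe sets annotated to ALB, albumin, disagreed: the brightest was higher by 1.26 without overlap, another had -0.75 (0.00013), and another 1.08 (SE 1.14, 0.451). The brightest, by which ALB counts among the 5 higher, ran only from 10.28 to 10.62 in S bulls and from 8.84 to 9.67 in the others. It did not follow the highest albumin signal of an array, in linear units 59800 in S bull 9 and 83300 in bull 8 without S.

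Of 12 red blood cell genes, 5 were higher and 2 lower. HBA, an alpha globin, was higher by 0.68 (SE 0.13, 0.000287) and TFRC, the transferrin receptor, was lower by 1.28 (SE 0.13, 1.75e-07). HBB, a beta globin, differed by 0.67 (SE 0.65, 0.405), while another of its probe sets was called at -0.58 (0.024). Nerve and Schwann cell markers were higher in 5 of 13 and lower in 3, with ERBB3 higher by 0.71 (SE 0.15, 0.000430) while S100B was lower by 0.47 (SE 0.17, 0.0253).

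In the cell's machinery, structural ribosome genes and the factors that serve them differed in their balance of calls, while the medians of both were small. Of 63 cytosolic ribosomal protein genes, 28 (44.4%) were higher and 4 (6.35%) lower, with a median of 0.13. RPL28 was higher by 0.69 (SE 0.06, 2.03e-08), RPLP2 by 0.44 (SE 0.06, 3.88e-06) and RPLP0 by 0.30 (SE 0.05, 0.000137), RPL5 was lower by 0.59 (SE 0.08, 6.38e-06), and RPS2 differed by 0.06 (0.526). With the hybridisation control level as a covariate 2 were higher and 1 lower, both below the shares over all genes in that fit. Among 35 translation factors 11 (31.4%) were higher and 16 (45.7%) lower, and the median of -0.05 became 0.02 with centred arrays. EIF3J and EIF3H, of initiation factor eIF3, were lower, with differences of -1.14 (SE 0.09, 8.87e-09) and -0.99 (SE 0.09, 5.67e-08), and EIF4A2, an RNA helicase, was lower by 0.70 (SE 0.06, 4.22e-08). EEF1A2, the muscle form of the elongation factor, ran from 5.17 to 8.23 (median 6.30) in S bulls against 7.61 to 8.20 (median 7.81), and was lower by 1.22 (SE 0.31, 0.00301), although 1 S bull exceeded all others, and with the hybridisation control level as a covariate the difference was 1.14. EIF4EBP1, which restrains initiation, was higher by 1.38 (SE 0.16, 9.33e-07).

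Splicing and nuclear RNA-binding genes were near background, with 17 of 55 higher and 16 lower. DDX39B, an RNA helicase, was higher by 1.18 (SE 0.10, 2.01e-08) and SNRPA, of the U1 particle, by 0.99 (SE 0.09, 6.47e-08). HNRNPL was higher by 1.12 (SE 0.09, 1.29e-08), with -0.07 and 0.00 on its dimmer probe sets. SRSF1, a splicing factor, was lower by 0.37 (SE 0.13, 0.0193), and differed by -0.99 and -1.33 on its others.

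Protein breakdown was mixed. The proteasome had 15 of 32 genes higher and 7 lower. PSMC4, an ATPase of its cap, ran from 10.39 to 10.64 (median 10.51) in S bulls and from 9.30 to 9.81 (median 9.50) in the others, higher by 0.98 (SE 0.07, 1.38e-09) without overlap. ADRM1, a ubiquitin receptor, was higher by 0.91 (SE 0.07, 5.86e-09). In the list of muscle protein breakdown 4 of 16 were higher and 8 lower. FBXO32, the atrophy ubiquitin ligase atrogin-1, was lower by 0.81 (SE 0.17, 0.000494) and differed by -0.88 on its other probe set, and USP14, a deubiquitinase, was lower by 0.57 (SE 0.07, 8.08e-07). Autophagy and lysosome genes were called in both directions, with 24 of 49 (49.0%) higher and 17 (34.7%) lower. CTSD, a lysosomal protease, was higher by 1.07 (SE 0.07, 8.93e-10), ATG9A by 1.09 (SE 0.08, 8.33e-09), and ATP6V0D1, of the proton pump, by 1.03 (SE 0.09, 2.27e-08), each without overlap. MAP1LC3B, the autophagosome marker, was lower by 0.67 (SE 0.07, 1.21e-07) without overlap, and LAMP1 higher by 0.21 (0.0162).

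Insulin and IGF signalling genes divided as the 9155 genes did, with 9 of 30 higher and 7 lower. IGF2, a growth factor, ran from 8.37 to 9.33 (median 8.84) in S bulls and from 7.16 to 7.85 (median 7.55) in the others. It was higher by 1.24 (SE 0.10, 1.11e-08) without overlap, but its other probe sets differed by 0.26, 0.86 and -0.34. AKT2 was higher by 0.88 (SE 0.09, 2.41e-07), and by 1.61 and 0.46 on its others. GHR, the growth hormone receptor, was lower by 1.94 on its brightest probe set (SE 0.21, 4.28e-07). Its other 10 ran from -1.32, at a mean level of 2.91, to a called 0.75 (2.83e-06), at 7.33. IGF1, a growth factor, differed by 0.15 (0.144), while others of its probe sets gave -0.18 (0.805) and a called -1.63 (0.000133). The latter came at a mean level of 3.22. INSR, the insulin receptor, differed by 0.34 (0.372), while others of its probe sets gave -0.09, -0.28 and a called -0.44 (0.0233).

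In amino acid handling, 15 of 34 genes were higher and 8 lower. SLC3A2, a transporter subunit, was higher by 1.27 (SE 0.10, 1.39e-08), SHMT2, of mitochondrial serine metabolism, by 1.02 (SE 0.08, 1.29e-08), and GLUL, glutamine synthetase, was lower by 0.40 (SE 0.09, 0.00138). Adrenergic and cAMP signalling had 17 of 32 (53.1%) higher and 7 (21.9%) lower. GRK2, which desensitises adrenergic receptors, was higher by 1.35 (SE 0.15, 6.73e-07). Of the catalytic subunits of protein kinase A, PRKACA was higher by 0.38 (SE 0.08, 0.000549) and PRKACB was lower by 1.47 (SE 0.14, 1.03e-07), with 0.14 on its dimmer probe set. TGF-beta and BMP signalling had 6 of 29 higher and 10 lower. The receptors ACVR2A and BMPR1A were lower, with differences of -0.66 (SE 0.09, 5.67e-06) and -1.51 (SE 0.23, 2.28e-05), SMAD4, their shared mediator, was lower by 0.62 (SE 0.09, 1.81e-05), and MSTN, myostatin, was lower by 0.83 (SE 0.32, 0.0368). TGFB1 differed by 0.20 (0.140).

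Clock genes were too few for a pattern, with 3 of 10 higher and 2 lower. NR1D1, a repressor of the clock, was higher by 0.85 (SE 0.17, 0.000271), and HLF was lower by 0.91 (SE 0.07, 1.1e-08) on its brightest probe set. Of 19 glucocorticoid responsive genes 3 were higher and 6 lower. NR3C1, the glucocorticoid receptor, was lower by 1.13 (SE 0.21, 0.000196), and PIK3R1 was lower by 1.70 (SE 0.25, 1.22e-05). FKBP5, a classic target, was lower by 1.17 (SE 0.42, 0.0238) at a dim signal, with medians of 3.60 in S bulls and 4.26 in the others. The difference was -0.38 in high and -1.97 in low IMF bulls, and the latter includes S bull 10, with a value of 0.06.

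Stress genes were called in both directions. Of 30 immediate early genes 10 were higher and 1 lower, with a median of 0.26. SRF, which controls many of them, was higher by 0.88 (SE 0.12, 5.83e-06), and ZFP36, which destabilises mRNAs, by 1.04 (SE 0.15, 1.11e-05). FOS, EGR1 and ATF3, which respond within minutes to handling or injury, differed by 0.27 (0.423), 0.81 (SE 0.48, 0.165) and -0.26 (0.503). Another EGR1 probe set gave -0.16 (0.130).

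Among heat shock genes and chaperones 12 of 39 were higher and 16 (41.0%) lower. CCT2 and CCT6A, subunits of the chaperonin that folds actin and tubulin, were lower, with differences of -1.06 (SE 0.09, 1.88e-08) and -1.25 (SE 0.09, 1.91e-09) without overlap, and HSPH1 was lower by 0.83 (SE 0.21, 0.00235). HSPB1, a small heat shock protein, was higher by 0.47 (SE 0.07, 1.1e-05) on its brightest probe set. Its dimmer one was called in the opposite direction, at -0.94 (0.000552) and a mean level of 5.99. HSPA1A differed by 0.20 (0.128), with -0.15 (0.578) on another probe set. The endoplasmic reticulum stress list had 6 of 23 higher and 9 lower. HSPA5, its main chaperone, was lower by 0.59 (SE 0.08, 6.29e-06), and differed by -3.21 and -1.18 on its other probe sets. The -3.21 came at a mean level of 2.73. DNAJB9 was lower by 0.83 (SE 0.10, 1.02e-06), and DDIT3, which marks severe stress, differed by 0.22 (0.212).

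Oxidative stress genes and metallothioneins were higher in 14 of 37 and lower in 4. PRDX5, a peroxiredoxin, was higher by 0.50 (SE 0.06, 1.41e-06). CAT, catalase, was lower by 0.54 (SE 0.07, 3.09e-06), and NFE2L2, the factor that induces many of these genes, was lower by 1.05 (SE 0.09, 4.04e-08), with 0.16 on its dimmer probe set. HMOX1 and MT2A differed by 0.35 (0.102) and 0.39 (0.0585). Hypoxia genes were lower in 10 of 24 (41.7%) and higher in 5. EGLN1, an oxygen sensor, was lower by 0.78 (SE 0.08, 2.76e-07), and differed by -0.79 and -0.93 on its others. HIF1A was lower by 0.67 (SE 0.17, 0.00216), and VEGFA, a target, differed by 0.20 (0.360).

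Cell cycle genes were near background at dim signals, with 12 of 35 higher and 8 lower. MDM2 and CCNB2 were lower, with differences of -1.70 (SE 0.19, 4.61e-07) and -1.78 (SE 0.26, 1.45e-05), with medians of 3.54 and 3.33 in S bulls, and CDK1 differed by -0.11 (0.724). Histone and chromatin genes had 10 of 30 higher and 10 lower. HMGB1 and HMGN4, non-histone chromatin proteins, were lower, with differences of -0.64 (SE 0.09, 5.55e-06) and -1.06 (SE 0.12, 7.72e-07), HDAC3, a deacetylase, was higher by 0.55 (SE 0.07, 1.89e-06), and H2AZ1, a histone variant, by 0.41 (SE 0.10, 0.00171).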

How the data were processed

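RNA of 20 bulls was hybridised to 1 Affymetrix cattle array each. Per the labels' protocols, biotin-labelled cRNA was made from DNase-treated total RNA, and per the submitters' processing notes GCOS 1.1.1 and Affymetrix Expression Console 1.1 were used. No source used here states the probe summary or the scaling. The authors deposited linear intensities per probe set, here read as log2(intensity + 1), with their scaling kept. Fold changes on this scale understate those of dim genes. Of 24128 probe sets 112 controls were left out of the gene tests, and 24016 were tested with limma 3.58.1 (lmFit and eBayes, R 4.3.3, series plus IMF, two-sided) with Benjamini-Hochberg adjustment at 0.05. The code was tested on simulated data. Array measures were tested by exact permutation of series within IMF group. The number of arrays limits the precision. The labels number no cultures or litters, so p-values measure the spread between these bulls and their arrays within a series. Should the series be a batch, each side is a single batch, and no p-value measures the spread between batches.

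Gene symbols came from the platform annotation: 13318 probe sets had 1 symbol, 86 several and 10724 none, and 13283 matched the RefSeq cattle gene table (names only). No sequence or coordinate is printed. The comparison, the 48 gene lists and the members were chosen with earlier results of these data known. The genes named were drawn, per direction, from the 10 with the smallest p and the 6 with the largest difference above the median signal. From each list they were drawn from the 3 with the smallest p and fixed anchor genes. Not every gene that this rule selects from the lists is named. CIDEC and the liver transcripts VTN and APOA2 fall outside this rule and were chosen after their values were seen. Alternatives changed the pseudocount to 16, scaling, filtering, moderation, covariates and the arrays included. The lists were also counted over all probe sets of their genes. Of the 48 lists, 14 were labelled as moved by this choice, against 13 with the control level as a covariate. Each other alternative run on the lists moved 0 to 2. The balance of calls in a list therefore depends in part on the choice of the brightest probe set.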

Additional observations from a re-analysis of the deposited data

Results flagged for a closer look

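A single array stood apart from the other 9 of its series, by Dixon's test for 10 samples, for the following genes and controls. Brackets give that bull's log2(signal + 1) and then its gap to the nearest bull as a share of the range. Chance gives such a gap in about 1 in 20 groups, and the causes were not tested. The genes of this text have 232 probe sets, each seen in both series, so many such gaps can arise by chance. Among S bulls the highest value stood apart for HBB in bull 10 (9, 0.631), APOA1 in bull 9 (7.52, 0.63) and SRF in bull 4 (8.28, 0.516). Among S bulls the lowest value stood apart for the dap 3′ control in bull 8 (11.44, 0.469), CHUK in bull 7 (8.99, 0.511), LDHA in bull 2 (13.73, 0.482), AQP7 in bull 10 (8.79, 0.545) and PGLYRP1 in bull 3 (0.14, 0.503). The same held for BOLA-DMA in bull 2 (5.66, 0.563), B2M in bull 7 (12.33, 0.527) and FKBP5 in bull 10 (0.06, 0.473). Among bulls without S the highest value stood apart for HADHA in bull 6 (9.2, 0.677), EBP in bull 7 (8.77, 0.508), HBB in bull 7 (8.27, 0.662), TTR in bull 8 (10.02, 0.798) and GLUL in bull 4 (13.47, 0.577). The same held for CCNB2 in bull 10 (6.45, 0.479) and SMAD4 in bull 4 (10.61, 0.47). Among bulls without S the lowest value stood apart for RABAC1 in bull 4 (9.85, 0.483), TOMM70 in bull 7 (8.85, 0.545), FOSL2 in bull 4 (5.35, 0.487), MYL2 in bull 3 (13.71, 0.486) and LEP in bull 6 (2.92, 0.621). The same held for DGAT1 in bull 7 (5.5, 0.467), CD3E in bull 4 (6.07, 0.573), CD79A in bull 2 (2.1, 0.496), MEF2A in bull 7 (9.52, 0.522) and AKT2 in bull 1 (7.93, 0.468). The same held for NR1D1 in bull 9 (5.68, 0.496), NR3C1 in bull 7 (8.23, 0.649) and CDK1 in bull 7 (3.71, 0.701).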

How the results depend on the processing

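The counts of 5886 higher and 6663 lower probe sets moved by over 1.5 times under 2 alternatives: with the control level as a covariate 3751 probe sets were called, 2125 higher and 1626 lower, and in high IMF bulls alone 7849, 3434 higher and 4415 lower. Leaving out 1 bull gave 12052 to 12463 calls, 5607 to 6050 higher and 6309 to 6706 lower. The interaction called 0 probe sets in the other alternatives run and 1 without the 4 albumin arrays. Without those arrays the share of values at 0 differed by 0.19 percentage points, now past the threshold, and the EF1A 3′ to 5′ difference by -0.26, no longer past it. Calls were lost without a change of sign for 69 named probe sets with the control level as a covariate, 19 without the 4 albumin arrays, 31 in high and 29 in low IMF bulls alone. Among the named genes, those below changed sign, each given with its difference, and of these only MYH11 and EEF1A2 had been called. In low IMF bulls alone the sign turned for MYH7 0, CS 0.08 and COL3A1 -0.08. In high IMF bulls alone the sign turned for TNNT1 -0.02, LEP 0.52, PPARG 0.07, CEBPA -0.24, HBB -0.36 and C3 1.41. With centred arrays the sign turned for MYL2 0.05, CS 0.05, PFKM 0.02, PPARG 0.03, PDGFRA 0.01, CD3E 0, PTPRC 0.01 and C3 0.03. After quantile normalization the sign turned for MYL2 0.04, CS 0.02, PFKM 0.01, LEP 0.02, PPARG 0.04 and PTPRC 0.02. With the control level as a covariate the sign turned for MYL2 0.02, ATP5F1B 0.01, CS 0.21, PFKM 0.08, ADIPOQ -0.7, PPARG 0.03, CEBPA -0.03, MYH11 0.54, RPS2 -0.01, EEF1A2 1.14, INSR -0.37 and ATF3 0.01. With the array median as a covariate the sign turned for MYL2 0.03, PDGFRA 0.07, PTPRC 0.28 and CDK1 0.08. Without the 2 dimmest arrays the sign turned for MYL2 0.03, CS 0.01, PDGFRA 0, PTPRC 0.13 and CDK1 0.01. Without the 4 albumin arrays the sign turned for CS 0.01, ADIPOQ -0.17, PDGFRA 0.03, CD3E 0 and PTPRC 0.18. With a pseudocount of 16 the sign turned for LEP 0.02. Leaving out 1 bull at a time moved MYL2 from -0.03 to 0.01, CS from -0.06 to 0.02, LEP from -0.25 to 0.2, PPARG from -0.11 to 0.03, CEBPA from -0.08 to 0.16, PTPRC from -0.17 to 0.09 and C3 from -0.41 to 0.28. The causes were not tested. No paired analysis was possible because the labels give no replicate numbers that the series share. Array number, unknown scaling and dim signals limit the precision.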
